A study of Mus musculus with 4 samples.

Results

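Firre is a long noncoding RNA gene of the mouse X chromosome that lies at 50563120 to 50635321 (mm10, minus strand, 72202 bases). It was examined in Hi-C correlation matrices through the bins that hold it, chosen by position alone. These were 1 of 683 bins of 250 kb (50500001 to 50750000) and 2 of 1707 bins of 100 kb (starting at 50500001 and 50600001). All of them held data in all matrices. The first 100 kb bin holds 51.1% of the gene with its 3′ end, together with the neighbouring noncoding gene Gm35612, and the second holds the remaining 48.9% with the promoter. The flanks of 3 Mb on each side comprised 24 bins of 250 kb and 60 of 100 kb, also with data throughout. The single Firre bins are therefore described beside 588 of 683 large bins and 1461 of 1707 small bins that held data on the whole chromosome.

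Hi-C ligates DNA ends that lie close together in the nucleus, so that sequencing the junctions gives the contacts of each region. It was made from tail tip fibroblasts (TTF) of female hybrid mice with 1 mus and 1 cas copy of the X chromosome. The 2 groups were Sirt7-/- cells (KO), which lack the nuclear deacylase SIRT7, and WT cells, with 2 replicates each. Both groups were otherwise the same in sex, cell type and cross, as far as the labels say. The labels do not state the age of the animals, how many were used, or which X copy was inactive. The design text of the series speaks of Xist binding instead. Labels and headers name Hi-C, which was taken as the assay. The matrices hold no expression, so neither the cell type nor Firre transcription could be checked.

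Each deposited value is a score between -1 and 1, the correlation between the contact profiles of 2 bins. It says how alike their contacts are and is not a contact frequency. Replicates of each genotype had been combined by the authors, leaving 1 matrix for each genotype, copy and bin size. No difference between KO and WT below has a replicate check, an error over cultures or a p-value. As a yardstick for single differences, the SD of the same difference over all bins of the chromosome is given, and ranks among all bins are given as percentiles. The depth behind the matrices is unknown. Adjacent 250 kb bins had a mean correlation of 0.131 in KO and 0.149 in WT on mus, and 0.184 in KO and 0.196 in WT on cas.

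Firre RNA stays in the nucleus, and its gene is built from local repeats that bind the architectural protein CTCF. In mouse, Firre is known to be transcribed from the active X and to escape silencing on the inactive X. On the inactive X the locus is known to contact Dxz4, the macrosatellite at which that chromosome parts into a pair of large domains. The question addressed here is how the contact profile of Firre related to the rest of each X copy, and how it differed without SIRT7.

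The promoter is shown because it fixes the 5′ end of the gene within the second 100 kb bin. The sequence from RefSeq (GRCm38, the assembly of mm10) covers chrX:50635272-50635571 on the minus strand, and is written 5′ to 3′ with the 50 bases from the annotated start onward in capitals.
Firre promoter: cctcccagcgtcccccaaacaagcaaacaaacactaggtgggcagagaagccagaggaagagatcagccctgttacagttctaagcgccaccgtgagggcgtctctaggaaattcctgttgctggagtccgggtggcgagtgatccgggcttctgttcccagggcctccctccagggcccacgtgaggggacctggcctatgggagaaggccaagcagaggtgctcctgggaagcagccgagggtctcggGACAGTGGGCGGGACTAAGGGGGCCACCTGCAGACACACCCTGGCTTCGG
Of its 300 bases 62.7% are G or C. Searched on both strands, it held no AAGCTT, the HindIII site used to cut the chromatin, found in 7.45% of 32851 mouse promoter sequences of the same length. These letters are absent from this window only, and the bins are far too large to place any value at the promoter.

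The surroundings of Firre differ on its sides. RefSeq places 113 genes by their midpoints in the Firre bin and the 3 Mb on each side of it, 46 of them protein-coding, with 24 in the left flank and 22 in the right. The Firre bin itself holds no protein-coding gene. Directly left lie Olfr1324, Olfr1323, Igsf1, Olfr1322, Olfr1321, Olfr1320 and Arhgap36, a stretch of olfactory receptor genes around Igsf1, the gene of an immunoglobulin superfamily membrane protein. Further left are Enox2, Rbmx2, Aifm1, the gene of a mitochondrial apoptosis factor, and Utp14a. Directly right lie the kinase gene Stk26, Frmd7, the small GTPase gene Rap2c and the splicing regulator gene Mbnl3. They are followed by Hs6st2, Usp26 and the heparan sulphate proteoglycan genes Gpc4 and Gpc3.

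On the mus chromosome the Firre row had the shape of a plateau that ended at Dxz4. The mean correlation of Firre with bins 5 to 10 Mb to its right was 0.139 in KO and 0.161 in WT, at the 95.2 and 97.5 percentiles of 519 rows. With bins 10 to 20 Mb to the right it was 0.128 in KO and 0.138 in WT, at the 97.3 and 95.9 percentiles of 484 rows. Among rows measured over the same distances, Firre was thus near the top in both genotypes.

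To the left the row fell off within a few megabases. With bins 5 to 10 Mb left of Firre the mean was 0.0280 in KO and 0.0179 in WT on mus, at the 12.7 and 8.09 percentiles. At 10 to 20 Mb left it was 0.0183 in KO and 0.00836 in WT, at the 15.3 and 11.7 percentiles. Further out, at 20 to 50 Mb left, it was higher again, with 0.0534 in KO and 0.0317 in WT, at the 86.1 and 64.4 percentiles. The class of 10 to 20 Mb rests on 20 bins with data to the left and 40 to the right. On mus, Firre therefore resembled the segment between itself and Dxz4 far more than the segment at equal distance on its other side, in both KO and WT.

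On cas this asymmetry was smaller and depended on genotype. The mean at 10 to 20 Mb right was 0.0246 in KO and 0.0920 in WT, at the 32.6 and 74.6 percentiles, and at 10 to 20 Mb left it was 0.00881 in KO and 0.00933 in WT. To the right at this distance the copies lay further apart in KO, with 0.128 on mus and 0.0246 on cas, than in WT, with 0.138 on mus and 0.0920 on cas.

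**Figure D1:**
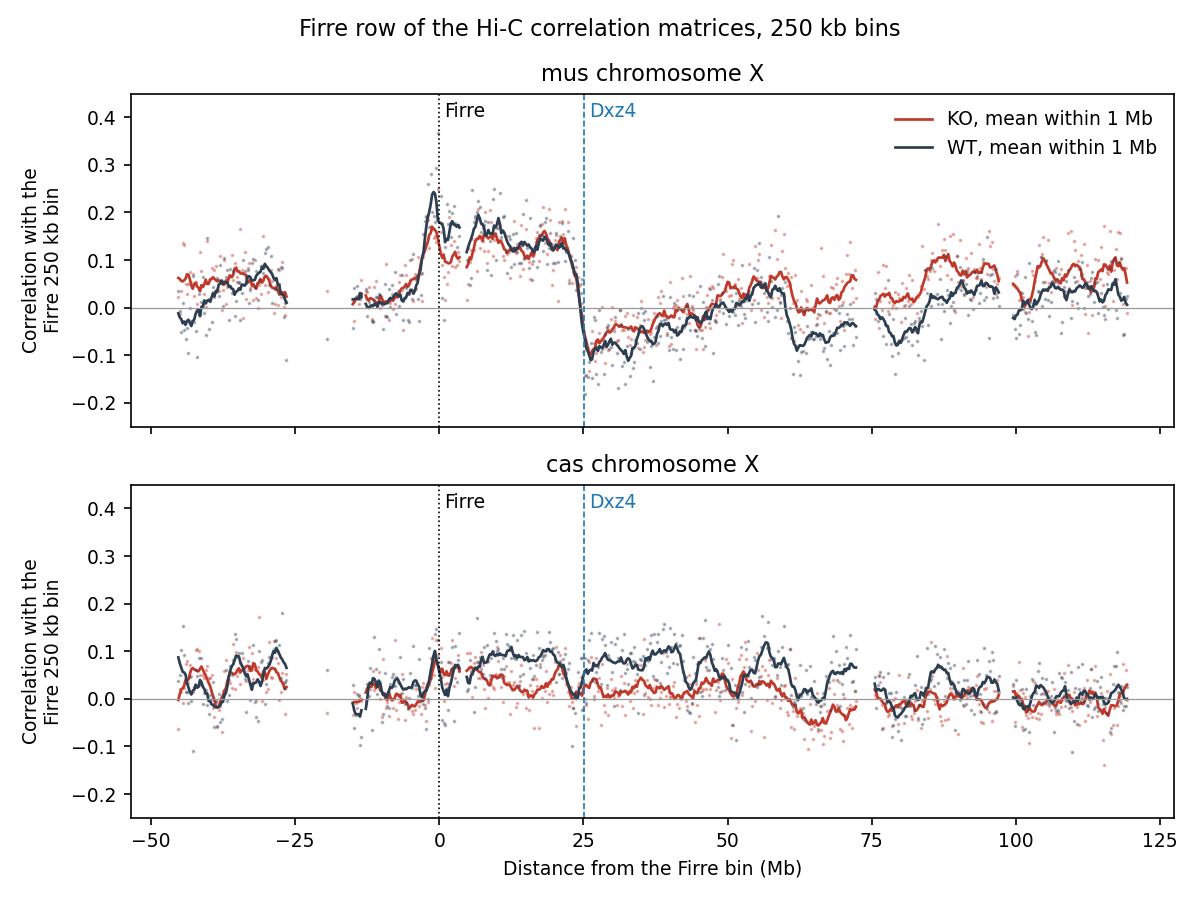
Correlation of every 250 kb bin with the Firre bin against distance from Firre in Mb, for mus (top) and cas (bottom); points are single bins, lines are means within 1 Mb, in KO and WT, and gaps are bins without data. On mus both genotypes show a plateau up to Dxz4 and negative values just beyond it, with 10 Mb means of 0.117 in both genotypes before Dxz4 and of -0.0571 in KO and -0.0880 in WT after it.

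The drop of the mus row at Dxz4 was steep. Over the 10 Mb before the Dxz4 bin (75500001 to 75750000) the Firre row averaged 0.117 ± 0.0548 in KO and 0.117 ± 0.0479 in WT (SD over 40 bins each). Over the 10 Mb after it the row averaged -0.0571 ± 0.0375 in KO and -0.0880 ± 0.0516 in WT. The step was therefore 0.174 in KO and 0.205 in WT, larger than the spread between bins in both. Among 393 positions along the Firre row, Dxz4 ranked 6 in both genotypes, and the highest steps lay at 75.25 Mb in KO and 74.75 Mb in WT. On cas the step at Dxz4 was 0.00739 in KO and -0.00985 in WT, at ranks 139 and 311.

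Bin by bin, the sign turned at the Dxz4 bin. The bin of Brcc3, Fundc2 and Mtcp1, the last before Dxz4, had a correlation with Firre of 0.0107 in KO and 0.0598 in WT on mus. The Dxz4 bin itself had -0.0932 in KO and -0.0492 in WT. The next bin, that of Pls3, the gene of an actin-bundling protein, had -0.143 in KO and -0.182 in WT and was the gene-holding bin least like Firre on mus. Dxz4 was placed by the midpoint of its host gene 4933407K13Rik (75725458 to 75764699), which runs on into the Pls3 bin. All 12 bins in the 3 Mb after the Dxz4 bin were negative in both genotypes.

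At equal distances, bins left of Firre were compared with bins beyond Dxz4, over 76 distances. The mean on mus was 0.0534 to the left and -0.0346 beyond Dxz4 in KO, and 0.0317 and -0.0603 in WT. The contrast between them was 0.0880 in KO and 0.0919 in WT. The flanking bins in the 3 Mb left of Firre had contrasts between 0.0474 and 0.0855 in KO and between 0.0372 and 0.116 in WT, and those right of it between 0.000209 and 0.0611 in KO and between -0.0145 and 0.0806 in WT. The contrast of Firre was above all 24 flanking bins in KO. In WT it was near the left flank's median of 0.0920 and above the 12 right bins. The KO minus WT difference at Firre was -0.00394, against a median of -0.0259 in the left flank and -0.0189 in the right. Dividing each matrix by its SD turned this difference to 0.126 SD units. On cas the contrast was 0.0253 in KO and -0.0328 in WT, a difference of 0.0581, which was 0.0140 with 100 kb bins.

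The mean of the Firre row differed between genotypes in opposite directions on the copies, though not in every segment. On mus the mean was 0.0491 in KO and 0.0236 in WT, and the difference of 0.0255 lay at the 99.1 percentile of 588 rows. The 24 flanking rows had differences between -0.000815 and 0.0233, with a median of 0.0148, so that the neighbourhood shared the direction in part. Of the 587 entries of the mus row, 35.3% were lower in KO, against 48.8% of all bin pairs. On cas the row mean was 0.0144 in KO and 0.0424 in WT, and the difference of -0.0281 lay at the 3.74 percentile. There 67.3% of entries were lower in KO, against 51.7% of all pairs, and the flanks had differences between -0.0537 and 0.0217 with a median of -0.00285.

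The excess on mus came from far bins. At 110 to 120 Mb the Firre row averaged 0.0200 in KO and -0.0546 in WT, at 120 to 130 Mb it averaged 0.0294 in KO and -0.0374 in WT, and at 130 to 140 Mb it averaged 0.0627 in KO and -0.0157 in WT. All 3 blocks were positive in KO and negative in WT. The first 10 Mb of the chromosome had 0.0499 in KO and -0.0172 in WT. Between 1 and 20 Mb to the right the sign of the difference was the other way, with 0.0953 in KO and 0.161 in WT at 2 to 5 Mb. The mus block of 50 to 60 Mb had 0.122 in KO and 0.165 in WT. On cas the row was lower in KO in most blocks, but at 0 to 10 Mb it had 0.0430 in KO and 0.0381 in WT. The largest cas block difference lay at 60 to 70 Mb, with 0.0258 in KO and 0.0932 in WT.

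**Figure D2:**
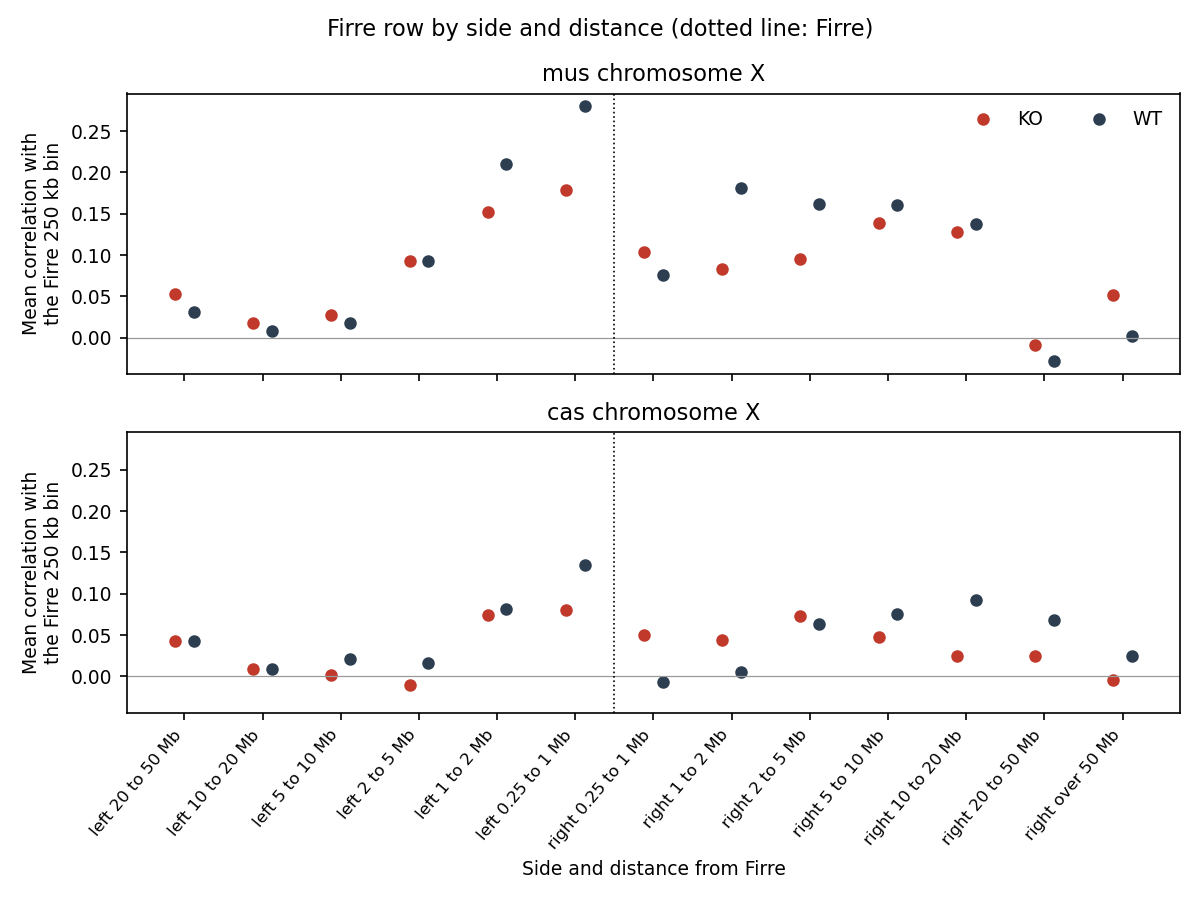
Mean correlation with the Firre 250 kb bin by side and distance class (Mb), for mus (top) and cas (bottom), with 1 point for KO and 1 for WT and no replicate error. On mus the classes 5 to 20 Mb to the right lie between 0.128 and 0.161 in both genotypes, while those at the same distances to the left lie between 0.00836 and 0.0280.

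How well the row of KO matched that of WT also differed by copy. On mus the Firre rows of KO and WT correlated at r = 0.620 over 573 bins at least 2 Mb away, above the median of 0.491 over all rows (82.3 percentile). On cas r was 0.264, at the 6.46 percentile, where the median row had 0.848. On cas the flanking rows ranged from -0.424 to 0.933 with a median of 0.645. At 100 kb the cas values of the Firre bins were -0.0589 and 0.230, and the mus values 0.459 and 0.231. The spread of the cas row was also low, with an SD over bins of 0.0461 in KO and 0.0552 in WT, at the 1.87 and 10.9 percentiles of rows. Bins of 1 row share their library and their neighbours, so these correlations are descriptions. A row with little spread leaves more room for noise, whose part in the low cas value was not tested. Between copies of the same genotype the Firre row correlated at 0.106 in KO and 0.0754 in WT.

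Next to Firre, the left neighbourhood was the more similar one on mus. The adjoining left bin, that of Olfr1324, had a correlation with Firre of 0.249 in KO and 0.368 in WT, and the adjoining right bin, with Stk26 and Frmd7, had 0.158 in KO and 0.234 in WT. Beyond it the row dropped. The bin of Rap2c and Mbnl3 had 0.0892 in KO and 0.0213 in WT, and the next one, without a protein-coding gene, had 0.0639 in KO and -0.0261 in WT. The values were higher again at Usp26 with 0.0506 in KO and 0.219 in WT, and at Gpc3 with 0.191 in KO and 0.202 in WT. The dip between Stk26 and Hs6st2 was thus deep in WT and, in KO, shallower and centred further right, with 0.0155 in KO and 0.128 in WT at Hs6st2.

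Averaged over 0.25 to 1 Mb, the left side on mus had 0.179 in KO and 0.280 in WT, at the 86.1 and 99.0 percentiles of 575 rows. The right side had 0.104 in KO and 0.0763 in WT, at the 35.8 and 7.65 percentiles. In WT the sides of Firre thus lay near opposite ends of the chromosome's range, and in KO nearer its middle. On cas the left side had 0.0801 in KO and 0.135 in WT and the right side 0.0495 in KO and -0.00623 in WT, at the 15.0 and 2.96 percentiles. The left side was also the higher one on cas in both genotypes. With 100 kb bins within 500 kb, the left side on mus had 0.0816 in KO and 0.141 in WT and the right side 0.0477 in KO and 0.0582 in WT. On mus the gap between the sides was smaller in KO at both bin sizes. On cas the left side then had 0.0951 in KO and 0.0432 in WT, and the right side 0.0394 in KO and 0.0320 in WT. The cas gap was thus smaller in KO with 250 kb bins and larger in KO with 100 kb bins. The cas left side was lower in KO with large bins and higher in KO with small ones.

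**Figure D3:**
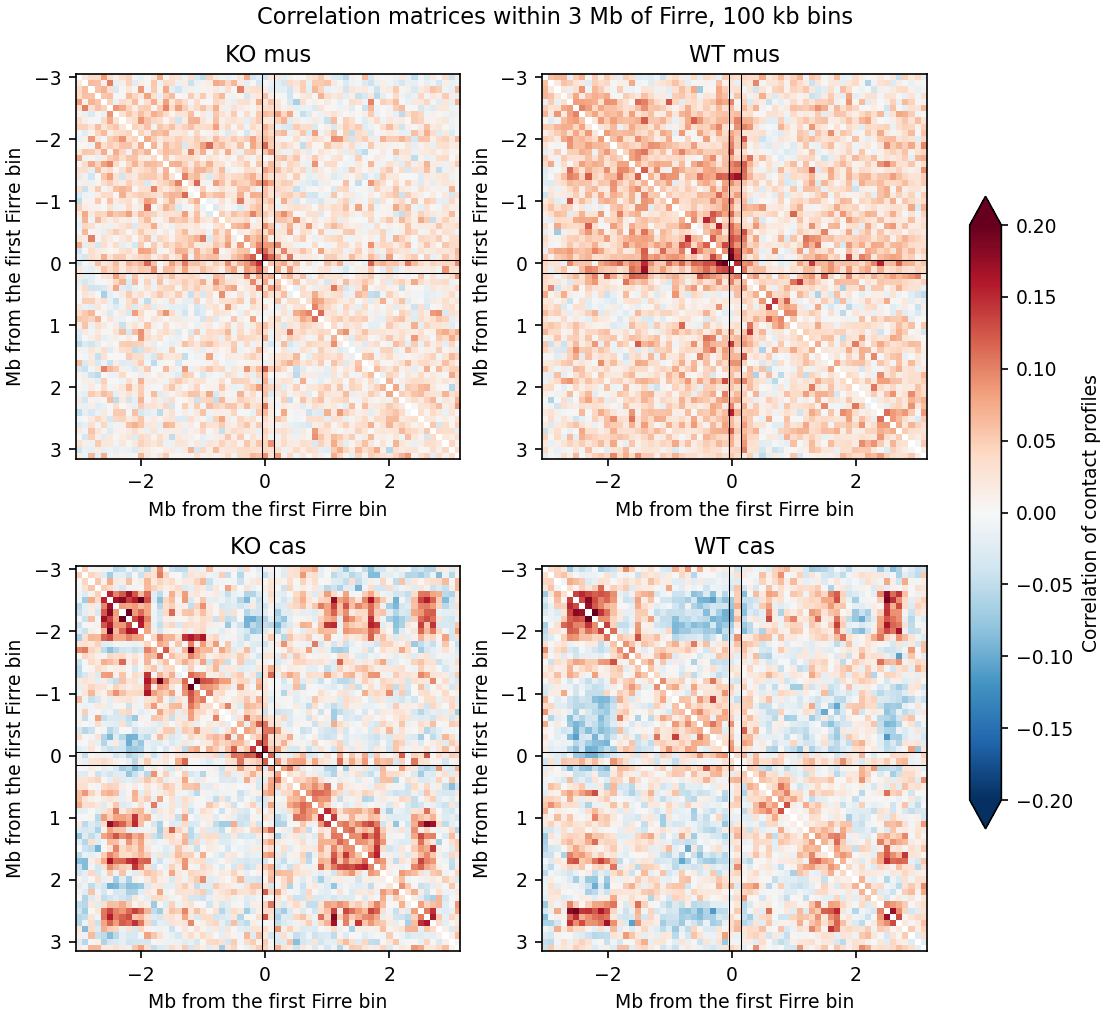
Correlation matrices of 100 kb bins within 3 Mb of Firre, KO left and WT right, mus above and cas below; axes give Mb from the first Firre bin, thin lines enclose the Firre bins, and colour is the correlation from -0.2 to 0.2. Along the first Firre bin on mus a band with a mean of 0.0430 in KO and 0.0667 in WT runs in both directions.

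At 100 kb, the Firre bins lay in a band of raised correlation in WT mus that they shared with neighbouring bins. With the 52 bins 0.5 to 3 Mb away on both sides, the bin starting at 50500001 averaged 0.0430 in KO and 0.0667 in WT on mus. This was rank 234 of 1318 bins in KO and rank 48 in WT, the 82.3 and 96.4 percentiles. The bin starting at 50600001 averaged 0.0253 in KO and 0.0531 in WT, at the 41.0 and 85.9 percentiles. The KO minus WT differences were -0.0237 and -0.0278, against a median of -0.00606 and an SD of 0.0104 over all bins. The band reached the bin at 50.7 Mb, with 0.0248 in KO and 0.0596 in WT. That WT value, at the 92.9 percentile, was above that of the second Firre bin. In WT the band ended by 51.0 Mb, where the values were 0.0129 in KO and 0.00333 in WT. The 5 bins directly left of Firre were also lower in KO, with differences between -0.0226 and -0.0118. Of these, the bin at 50.4 Mb had 0.0526 in WT, at the 85.1 percentile and close to the second Firre bin. In WT those from 50.1 to 50.3 Mb lay between the 69.4 and 72.1 percentiles, and that at 50.0 Mb at the 39.8 percentile. This measure was chosen after the heatmaps were seen. On cas the first Firre bin had 0.0164 in KO and -0.00160 in WT and the second 0.0264 in KO and 0.0251 in WT.

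The 2 Firre bins resembled each other to a degree that also differed. Their correlation on mus was 0.0544 in KO and 0.149 in WT, at the 69.3 and 99.2 percentiles of adjacent bins. On cas the order was the other way, with 0.121 in KO and 0.0380 in WT, at the 87.1 and 23.6 percentiles. Each of these is 1 entry of a matrix.

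The local boundary was measured by the boundary score, which for a 100 kb bin takes the mean correlation inside the 1 Mb to its left and to its right and subtracts the mean across it. Averaged over the 2 Firre bins, the score on mus was 0.0102 in KO and 0.0293 in WT. These lay at the 87.5 and 98.6 percentiles of 1346 adjacent bin pairs. The difference of -0.0191 lay at the 0.297 percentile, against an SD of 0.00570 over all pairs. The first bin had 0.00788 in KO and 0.0249 in WT, and the second 0.0125 in KO and 0.0336 in WT, so that both were lower in KO. Over all pairs 51.6% had a lower score in KO on mus. The rank depended on the window. The difference was -0.0164 with 300 kb, at the 17.7 percentile and within the SD of 0.0172, and -0.0131 with 500 kb, at the 13.1 percentile with an SD of 0.0111. With 2 Mb it was -0.00251, at the 15.0 percentile. The mus score was lower in KO with all 4 windows, but far out in the chromosome's range only with 1 Mb.

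On mus the parts of the score show where the difference lay. Correlation within the 1 Mb left of Firre was 0.0431 in KO and 0.0750 in WT, and within the 1 Mb right 0.0342 in KO and 0.0497 in WT. Across Firre it was 0.0285 in KO and 0.0331 in WT. All 3 parts were lower in KO, the left one by the most.

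Within 1 Mb of Firre, the mus boundary score peaked to its right at most window sizes. With the 1 Mb window, the highest score within 1 Mb of Firre was 0.0259 in KO, in the bin 51000001 to 51100000 that holds Rap2c, at the 98.7 percentile of 1359 bins. In WT it was 0.0404, in the bin 50700001 to 50800000 between Firre and Stk26, at the 99.3 percentile. Farther left than 1 Mb, the bin at 47.8 Mb scored higher with this window, with 0.0344 in KO and 0.0446 in WT. With the 500 kb window the peak lay in the same bin in both genotypes, 50900001 to 51000000, with 0.0482 in KO and 0.0697 in WT. That WT value was the highest of 1403 bins on the chromosome, and the KO value lay at the 99.9 percentile. With these windows Firre lay left of the peak, which fell between its promoter and the bin of Rap2c, or in that bin in KO with the 1 Mb window. With 300 kb the KO peak lay further right, at 51.5 Mb, and with 2 Mb the WT peak fell on the second Firre bin.

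The boundary score sets close pairs within a side against more distant pairs across, so it was also computed with pairs matched on distance. The Firre bins then had means of -0.0123 in KO and 0.00158 in WT on mus, at the 6.32 and 56.7 percentiles of 1425 pairs. The peaks to the right stayed at 51.0 Mb in KO, with 0.0193, and at 50.7 Mb in WT, with 0.0279. Averaged over the Firre bins, the matched score on mus was thus near the middle of the chromosome's range in WT and near its lower end in KO. The bins were unlike, with -0.0196 in KO and -0.0123 in WT in the first, and -0.00497 in KO and 0.0154 in WT in the second. On cas the matched means were 0.00957 in KO and 0.00273 in WT, at the 73.0 and 59.3 percentiles.

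Bins with a lower score in KO on mus formed a stretch of 8 from 50.2 to 51.0 Mb, with the largest difference, -0.0223, at 50.7 Mb. There the score was 0.0181 in KO and 0.0404 in WT. An equally long stretch of lower KO scores ran from the bin at 48.1 Mb to that at 48.8 Mb. At these ends the scores were 0.0220 and 0.00490 in KO, and 0.0275 and 0.00607 in WT. Outside these stretches the sign varied. Of 60 scored bins in the 3 Mb flanks and at Firre, 37 were lower in KO, against 50.4% of all bins.

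**Figure D4:**
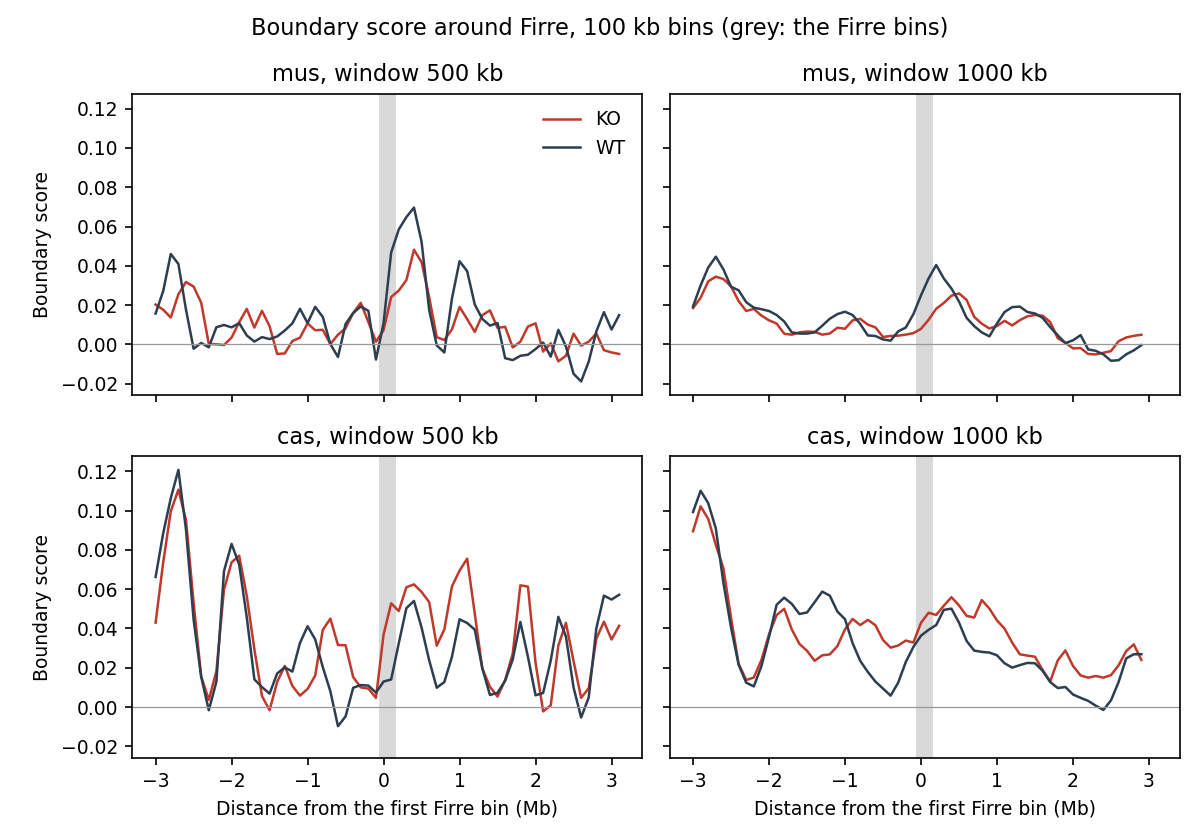
Boundary score of 100 kb bins against distance from the first Firre bin in Mb, for mus (top) and cas (bottom) with windows of 500 kb (left) and 1000 kb (right), in KO and WT; grey marks the Firre bins. On mus the highest score within 1 Mb of Firre lies to its right, and with the 500 kb window it reaches 0.0482 in KO and 0.0697 in WT. With 1000 kb the mus bin at 47.8 Mb is higher than that local peak, with 0.0344 in KO and 0.0446 in WT.

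On cas the score at Firre was 0.0454 in KO and 0.0378 in WT with the 1 Mb window, at the 87.2 and 84.5 percentiles. The difference of 0.00762 was within the SD of 0.0100 over all pairs. With smaller windows it was beyond the SD. With 500 kb the score was 0.0448 in KO and 0.0135 in WT, a difference of 0.0314 at the 97.3 percentile with an SD of 0.0143. With 300 kb it was 0.0583 in KO and 0.00658 in WT, a difference of 0.0517 at the 99.6 percentile with an SD of 0.0200. With 250 kb bins the order turned, with 0.0593 in KO and 0.110 in WT. Single bins with a higher cas score in KO formed a stretch of 38 from 49.6 to 53.4 Mb, Firre included. The largest difference there was 0.0287, at the 98.2 percentile, and 15 of 60 bins around Firre were lower in KO, against 43.5% of all bins. The highest score within 1 Mb on cas lay at 50.9 Mb in both genotypes with the 1 Mb window, 0.0559 in KO and 0.0501 in WT. Over all adjacent pairs 42.6% had a lower score in KO on cas. With the 1 Mb window the local maximum thus lay right of Firre on both copies, though with 300 kb the KO maximum on cas was the second Firre bin, with 0.0904.

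The compartment score of a 250 kb bin was its mean correlation with the bins of class A less its mean correlation with those of class B. A and B are sets of 118 bins each, from the ends of the first principal component of the cas matrices, and held 340 and 55 protein-coding genes. Firre belonged to neither. On cas its score was 0.00564 in KO and -0.0844 in WT, at the 67.2 and 56.3 percentiles of 588 bins. The difference of 0.0900 lay at the 89.8 percentile, against an SD of 0.0762 over bins, and was 0.0264 with 100 kb bins. That mean took in unlike bins, with a difference of 0.0453 in the first Firre bin and 0.00748 in the second. Entries of the cas matrices also spread less at 100 kb, with an SD of 0.0394 in KO and 0.0418 in WT. At 250 kb it was 0.117 in KO and 0.131 in WT.

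The cas score of WT came from similarity to B bins. Firre correlated with A bins at 0.0157 ± 0.0383 in KO and -0.00297 ± 0.0437 in WT (SD over 114 bins). With B bins it correlated at 0.0100 ± 0.0396 in KO and 0.0814 ± 0.0393 in WT (SD over 118 bins). In KO the locus thus had about the same low correlation with both classes.

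Firre was the right end of a run of 6 bins from 49.25 to 50.75 Mb, each with a higher cas score in KO. Over all bins 60.9% had a higher cas score in KO and 39.1% a lower one. The mean score of the run was -0.0141 in KO and -0.211 in WT. The largest difference in it was 0.305, at the bin of Olfr1320 and Olfr1321, with 0.0672 in KO and -0.237 in WT. The bin of Arhgap36, the gene of a protein kinase A antagonist, had 0.105 in KO and -0.108 in WT. The bin of Igsf1 and Olfr1322 had -0.0504 in KO and -0.238 in WT. The bins of Olfr1323 and Olfr1324 had -0.110 and -0.103 in KO, and -0.314 and -0.284 in WT. Firre had the smallest difference of the 6. Of 72 such runs on the chromosome, 19 were longer, the longest with 47 bins. At 100 kb all 15 bins of the same stretch were higher in KO on cas, against 58.7% of all bins, with means of 0.00735 in KO and -0.0447 in WT.

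Right of Firre the cas scores turned. The adjoining bin, with Stk26 and Frmd7, had -0.104 in KO and -0.0661 in WT and was lower in KO, as was that of Rap2c and Mbnl3 with 0.130 in KO and 0.187 in WT. The bin of Hs6st2, a heparan sulphate sulphotransferase gene, was higher in KO, with 0.326 in KO and 0.193 in WT. In all, 12 of 25 bins within 3 Mb were higher in KO on cas, below the share over all bins.

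On mus the compartment score of Firre was 0.0254 in KO and 0.0343 in WT, at the 93.0 and 92.5 percentiles of bins, although both are close to 0 on the scale of cas. The difference of -0.00886 was less than the SD of 0.0218 over bins, and at 100 kb it vanished, with 0.00689 in KO and 0.00688 in WT. In the 3 Mb on each side 24 of 25 bins, Firre included, were lower in KO, the exception being that of Rap2c and Mbnl3. Of all bins 47.3% were lower and 52.7% higher in KO, but of those left of Dxz4 85.3% were lower in KO. The neighbourhood thus went with its side of the chromosome. The median difference was -0.0266 in the left flank and -0.0237 in the right, and that of Firre was smaller.

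**Figure D5:**
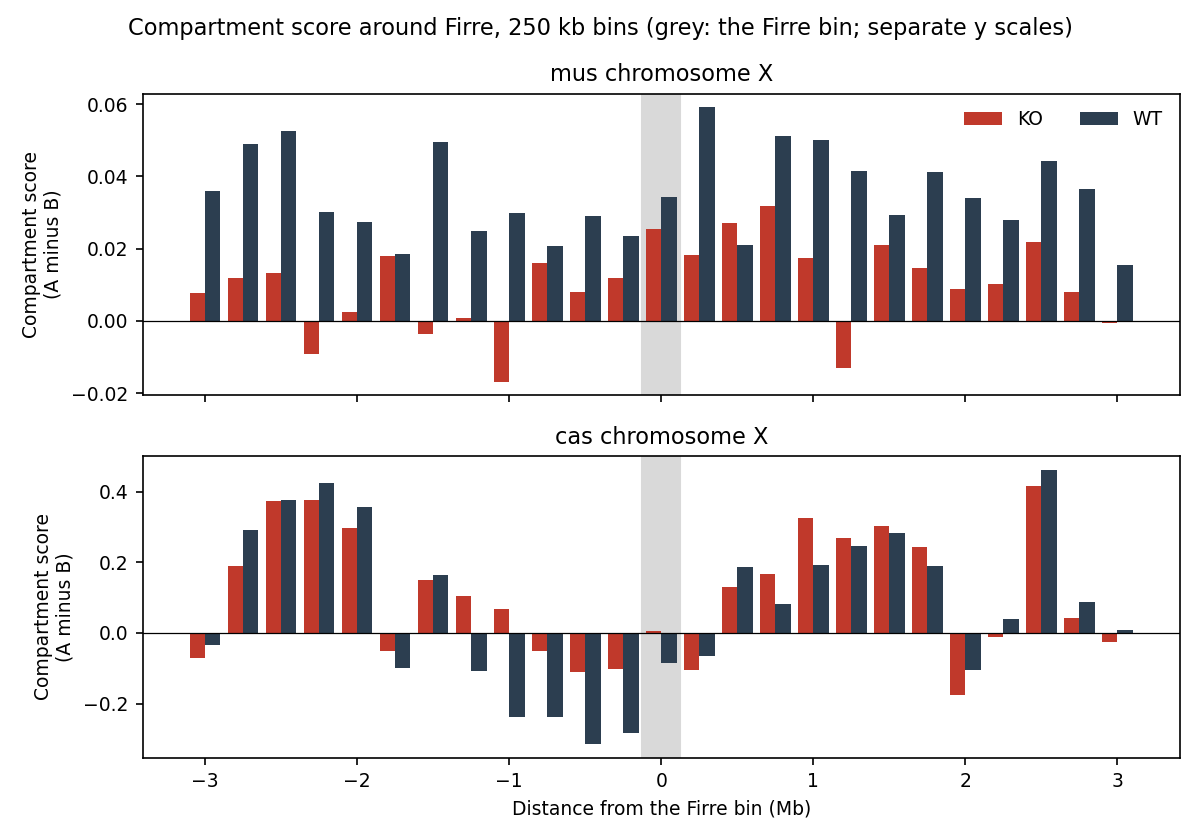
Compartment score of 250 kb bins against distance from Firre in Mb, mus (top) and cas (bottom, larger scale), with KO left of WT at each bin; bars start at 0 and grey marks Firre. On cas the 5 bins left of Firre and Firre itself have higher scores in KO, with means over the run of -0.0141 in KO and -0.211 in WT.

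Dxz4 and Firre, known to contact each other on the inactive X, had unlike profiles on mus. In the square of 3 by 3 bins of 100 kb around the pair, the mean correlation was -0.0577 in KO and -0.0614 in WT. Of 23859 squares at like distance, 7 were as low or lower in KO and 11 in WT, the pair's own square included. Neighbouring squares overlap, and squares that span Dxz4 were not set apart, so these counts are descriptions. The 9 entries ranged from -0.0937 to -0.0388 in KO and from -0.107 to -0.00259 in WT, so all were negative. The surrounding 1 Mb, which takes in bins on both sides of Dxz4, averaged -0.0111 in KO and -0.0150 in WT, less negative than the pair. The difference of 0.00372 between genotypes was small beside this range, and with single 250 kb bins it turned to -0.0440. The single 250 kb entries were -0.0932 in KO and -0.0492 in WT, at the 0.988 and 10.3 percentiles of 4150 pairs. The WT rank was thus much milder than with the squares. At that bin size the row stayed negative beyond Dxz4. The Pls3 bin had -0.143 in KO and -0.182 in WT, and the bin after it -0.0879 in KO and -0.142 in WT. The negative value was thus shared with bins beyond Dxz4 and was not particular to the pair. On cas the square of 3 by 3 bins had -0.00529 in KO and -0.00145 in WT, at the 32.1 and 37.8 percentiles. A negative correlation of profiles says nothing of whether the loci touch.

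Xist, the RNA gene that starts X inactivation, shares its 100 kb bin with its antisense partner Tsix and its activator Jpx, 52.9 Mb from Firre. The square of that bin and Firre had a mean of -0.00492 in KO and 0.00171 in WT on mus, at the 32.1 and 63.8 percentiles, and of 0.0153 in KO and 0.0159 in WT on cas. Ftx, another noncoding gene of that region, had -0.00550 in KO and -0.0128 in WT on mus, and 0.0161 in KO and 0.0176 in WT on cas. None of these pairs lay at an end of its range.

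Firre is an escape locus, and 12 bins holding other escape genes were scored against the mean correlation at their distance. On mus 10 of 12 lay above it in KO and 6 of 12 in WT, where 60% and 44% of all bins in the Firre row did. On cas 8 of 12 lay above it in KO and 5 of 12 in WT, with 36.3% and 57.6% of all bins. The cas medians were 0.0326 in KO and -0.0121 in WT, against -0.0153 and 0.0101 over all bins. Shroom4, an actin-binding protein gene, had a correlation with Firre of 0.0505 in KO and -0.0652 in WT on mus. Eif2s3x, the gene of a translation initiation factor subunit, had 0.0657 in KO and -0.0469 in WT on mus. Kdm6a, a histone demethylase gene, went the other way on mus with 0.0448 in KO and 0.0945 in WT. Of the list, 2610029G23Rik was not found in the annotation. Utp14a, within the left flank, had nearly equal values on mus, 0.192 in KO and 0.192 in WT.

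Among 333 gene-holding bins at least 5 Mb from Firre, the bins most like it on mus all lay on its right, before Dxz4. The bin of Arhgef6 and the splicing protein gene Rbmx had 0.208 in KO and 0.225 in WT. That of Cdr1, the locus of a circular RNA, had 0.175 in KO and 0.241 in WT. The bin of Zfp449 and Ints6l had 0.144 in KO and 0.247 in WT. The least like were Pls3, given above, Cldn34d with -0.134 in KO and -0.115 in WT, and the bin of Prkx and Pbsn with -0.0946 in KO and -0.140 in WT, all less than 3 Mb right of the Dxz4 bin.

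On cas the most like bins lay on both sides of Firre, and the 3 least like lay near the distal end of the chromosome, beyond 150 Mb. The bin of Tex13c3 had 0.173 in KO and 0.101 in WT, that of Heph and Gpr165 had 0.0807 in KO and 0.166 in WT, and that of Brs3 and Htatsf1 had 0.0776 in KO and 0.169 in WT. The lowest were Gpr143 with -0.0922 in KO and -0.0703 in WT, Adgrg2 with -0.0261 in KO and -0.113 in WT, and Tmsb4x, the gene of an actin-sequestering peptide, with -0.0733 in KO and -0.0604 in WT.

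Of those bins, 254 on mus and 238 on cas had a KO minus WT difference of the same sign at 100 kb. Among them the highest on mus were the bin of Serpina7 with 0.151 in KO and -0.0329 in WT, that of Map3k15 and Pdha1 with 0.161 in KO and -0.0214 in WT, and that of Brwd3 with 0.162 in KO and -0.0193 in WT. All 3 lie beyond Dxz4. The lowest on mus were Brs3 and Htatsf1 with 0.0764 in KO and 0.202 in WT, Maoa with -0.0225 in KO and 0.0993 in WT, and Nap1l2 with -0.0316 in KO and 0.0892 in WT.

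On cas the lowest differences were at Rtl3 and Lpar4 with -0.0803 in KO and 0.131 in WT, at Gm52448 with -0.0163 in KO and 0.156 in WT, and at 4933436I01Rik with -0.0620 in KO and 0.106 in WT. The highest on cas were at Stard8 and Efnb1 with 0.157 in KO and 0.00612 in WT, at Tfe3 and Hdac6 with 0.0138 in KO and -0.111 in WT, and at Nr0b1 with 0.126 in KO and 0.00848 in WT. These are single entries picked for their size from 1 matrix each.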

How the data were processed

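The 8 deposited matrices cover chromosome X at 250 kb and 100 kb for KO and WT and for the mus and cas copies. Per the file headers the authors combined replicates, split reads by copy and wrote HOMER matrices, and each value is a score, a correlation of contact profiles. Tools named in the submitters' processing notes are Juicer, HOMER, Bowtie2 and cutadapt, without versions, and the build is mm10. The contact normalization, the rule for assigning reads to a copy and the read numbers are not stated. Cells were fixed with 2% formaldehyde, per the labels' protocols.

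A bin was kept when all 4 matrices of its size held data there. Boundary scores needed 50% of pairs with data, and compartment scores used pairs at least 2 Mb apart and classes of 20% of bins. Genes were placed by midpoint with RefSeq annotation. Computation used Python 3.11.15 and numpy 2.4.6, and functions were tested on simulated matrices. Named bins are, per copy, the 3 highest and 3 lowest gene-holding bins at least 5 Mb away by mean entry and by KO minus WT with the same sign at 100 kb. Besides these, structural loci, escape genes and genes within 3 Mb are named, not every one, and some after their values were seen. Firre, the lists and the measures were chosen with earlier results of these data known. No test between genotypes was possible with 1 matrix for each, and alternatives changed bin size, windows, distances, classes, scaling and weak bins.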

Additional observations from a re-analysis of the deposited data

Results flagged for a closer look

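At Firre 4 measures had KO minus WT differences of opposite sign on the mus and cas copies. In each measure the sign on at least 1 copy rests on a small difference or changed with the settings. None of these differences between copies was tested, since there was 1 matrix for each. The KO minus WT boundary score was -0.0191 on mus and 0.00762 on cas. The cas value was within the SD of 0.0100 over all pairs, and was -0.0503 with 250 kb bins. The compartment score differed by -0.00886 on mus and 0.0900 on cas, on scales that differ between the copies. The mus value was less than the SD of 0.0218 over bins. The Firre and Dxz4 correlation differed by 0.00372 on mus and -0.00385 on cas, both small. The row contrast at Dxz4 differed by -0.00394 on mus and 0.0581 on cas, and the mus value changed sign when each matrix was divided by its SD.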

How the results depend on the processing

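Of 44 recomputed differences, 36 were in the reported unit. Of these 22 kept their sign and stayed within 1.5 times the reported value, 10 kept it and moved further, and 4 changed sign. Changes of bin size are among the 36, and entries spread more at 250 kb than at 100 kb. On cas in KO their SD was 0.117 at 250 kb and 0.0394 at 100 kb, so sizes do not compare directly between bin sizes. The other 8 of the 44 divided each matrix by its SD, which changes the unit, so that only the sign compares, and 7 kept it. In those units the KO minus WT boundary score was -0.604 on mus and 0.249 on cas, the compartment score -0.0769 and 0.692, the Dxz4 correlation 0.0187 and -0.0998, and the row contrast at Dxz4 0.126, a changed sign, and 0.467.

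With a 2 Mb window the mus boundary difference was -0.00251, and with 500 kb the cas one was 0.0314. With 250 kb bins they were -0.0492 on mus and -0.0503 on cas, a changed sign on cas, and with distance means subtracted the cas one was 0.00492. At 100 kb the compartment difference was 6.03e-06 on mus, a changed sign at a size of nearly 0, and 0.0264 on cas, and the cas row contrast was 0.0140. With the neighbouring bins averaged in, the mus row contrast differed by -0.00063.

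The Dxz4 correlation differed by 0.0131 on mus and -0.00082 on cas for single 100 kb bins, by -0.0440 and -0.0539 for single 250 kb bins, where the sign changed on mus, and by 0.00744 on cas for squares of 5 by 5 bins, where it changed too. Its genotype difference is thus not settled on either copy. The cause of these changes was not tested.

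No paired analysis was possible because the authors had merged the replicates. For the same reason none was left out, and unknown depth limits every single entry.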
